A study of Mus musculus with 4 samples.

Results

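Immediate early and heat shock response genes, 30 in all, were followed in natural killer (NK) cells of mouse spleen. The cells were wild type (WT) or labelled as Tcf7 knock-out (KO). The 30 members were chosen by gene symbol, and each symbol was matched through its Entrez gene number to 1 of the 26611 rows of the count table. They comprise 7 AP-1 and ATF subunits, 3 Egr factors, 3 Nr4a receptors, 6 feedback inhibitors, 7 other early genes and 4 heat shock genes. NK cells are innate lymphocytes that kill target cells and secrete cytokines, and Tcf7 encodes the transcription factor Tcf-1. The study sequenced 4 libraries, 2 per genotype, each from a different mouse of the C57BL/6 background, with no treatment named in the labels and no age given. Cells were sorted as TCRbeta- NK1.1+ NKp46+ CD11b+ KLRG1+, so only late-maturation NK cells were measured in both genotypes. The labels do not state how the Tcf7 allele was made or in which cells it acts. They number the libraries 1 and 2 in each genotype, without saying that a number marks a shared day, litter or batch.

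Immediate early genes are transcribed within minutes of a stimulus, without new protein synthesis, after kinase and calcium signals activate factors already present in the cell. Many of their products are transcription factors, such as the AP-1, Egr and Nr4a proteins, and others, such as the Dusp phosphatases, Zfp36 and Nfkbia, shut the signals down again. Heat shock genes are induced by heat shock factors when unfolded proteins accumulate. In lymphocytes both sets respond to receptor stimulation, and both are also known to change when tissue is dissociated and cells are handled.

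The libraries of both genotypes fell apart by their number. Across 9375 genes with a mean of at least 5 CPM (counts scaled to a common library total, with TMM factors), the log2 difference of WT library 2 from WT library 1 and that of KO library 2 from KO library 1 had a Pearson correlation of 0.87, a description over genes that share these 4 libraries. Both differences also followed gene length, with a Spearman rho of 0.58 in WT and 0.61 in KO, and less so the GC content of transcripts (0.25 and 0.19 over 9125 genes). The median difference was -0.36 (WT) and -0.54 (KO) for genes of up to 1000 counted bases and 0.70 and 0.98 for genes of over 6000. The libraries held 28254693 to 40175537 counts, and both libraries numbered 2 were deeper than both numbered 1. Tcf7 itself was at 89.5 and 79.1 CPM (WT) against 11.2 and 25.0 CPM (KO), lower in both KO libraries. The sorted markers Ncr1 (1732 and 1557 CPM in WT against 1611 and 1509.9 CPM in KO) and Klrb1c were abundant in every library, and all 10 NK cell markers examined were detected in all 4.

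None of the 30 genes passed the test of KO against WT that was run over all genes. edgeR's quasi-likelihood test called 0 of the 30 members and 0 of 12723 genes at an adjusted p under 0.05 (0% of genes tested), and DESeq2 called 0 members and 71 genes (0.558%), while limma voom called 0 of both. At an unadjusted p under 0.05, edgeR had 0 members and 2.84% of all genes, and the smallest unadjusted p of a member was 0.314. Tcf7 itself did not pass edgeR's test (log2 fold change -2.22, SE 0.45, unadjusted p = 0.00607), while DESeq2 called it (-2.20, adjusted p = 0.00216). A gene that edgeR did not call may thus still differ between the genotypes. All 30 members passed the filter on low counts. Their median log2 fold change, KO minus WT, was 0.019 (17 above 0 and 13 below), beside -0.0098 over all genes, and single members ranged from -1.05 to 0.77. In 26 of 30 members the KO and WT values overlapped. The 2 KO libraries lay above both WT libraries for 3 members, Ier2, Gadd45b and Nfkbia, beside 9.64% of all genes, and below both for 1, Ier5, beside 11.6%. Together these are 4 of 30 members, beside 21.2% of all genes. In cells sequenced in bulk, fewer cells with a transcript and less transcript per cell cannot be told apart.

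The larger differences lay between the 2 libraries of a genotype. Both libraries numbered 2 were above both libraries numbered 1 for 18 of the 30 members, beside 34.6% of all genes, and below for 5, beside 33.2%. WT library 2 stood at least 2-fold above WT library 1 for 5 members (Egr1, Egr3, Hspa1a, Hspa1b and Hsph1), beside 8.27% of genes. KO library 2 stood at least 2-fold above KO library 1 for 10, beside 12.6% of genes: the same 5 with Egr2, Fosl2 and the 3 Nr4a genes. After a smooth trend on gene length was subtracted from each library, 18 members were higher in library 2 than in library 1 of their genotype in both genotypes, beside 33.5% of genes. These are not the same 18, since Fosl2 and Tnfaip3 dropped out and Ier2 and Gadd45b came in. The summed monocyte and macrophage markers moved the other way, with 871 and 410.5 CPM in the WT libraries against 917 and 461 CPM in the KO libraries, in the order of their numbers. Summed T cell, B cell, neutrophil and erythroid markers were also lower in library 2 than in library 1 of each genotype. So were the summed NK cell markers. The part of these transcripts in the result, and that of depth, was not tested.

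**Figure D1:**
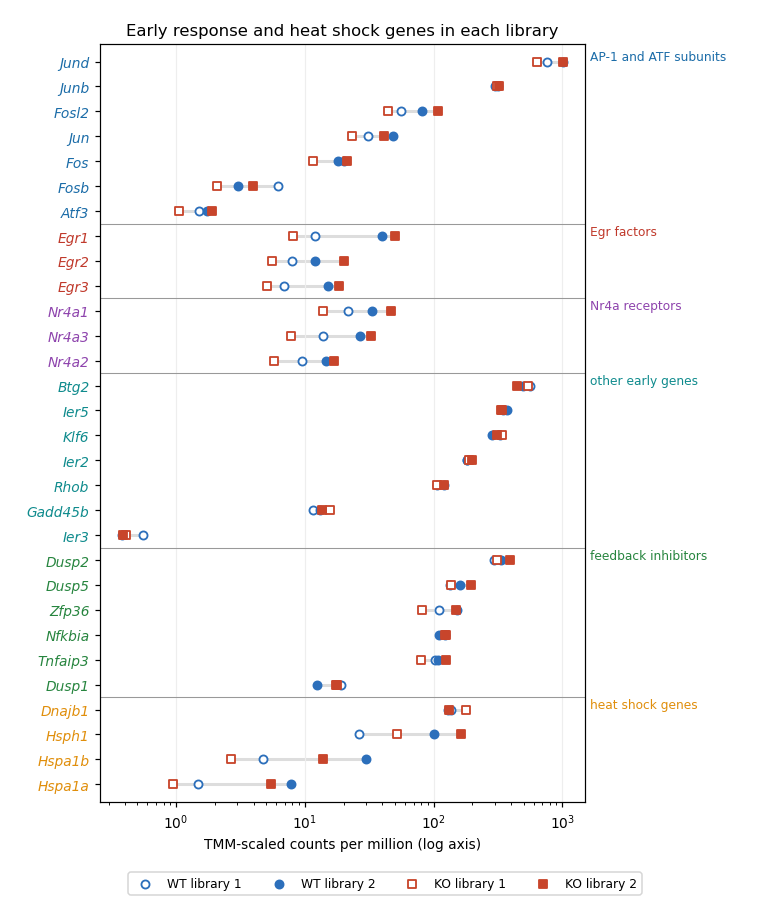
Level of each of the 30 genes in each library, in TMM-scaled CPM on a log axis, grouped by role; blue circles are WT and red squares are KO, open for library 1 and filled for library 2, and grey lines span the 4 libraries. The filled symbols of both genotypes lie right of the open ones for the Egr and Nr4a genes and for Hsph1, Hspa1a and Hspa1b, while Junb, Ier2, Ier5 and Nfkbia hardly spread.

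Compared as CPM per kilobase of counted gene length (RPKM), the members spanned a wide range in WT cells. Jund led at 308 ± 63.4 RPKM, followed by Dusp2 (194 ± 18.4), Btg2 (171 ± 14.0), Junb (168 ± 6.78), Dusp5 (127 ± 16.9), Ier2 (119 ± 0.358) and Ier5 (109 ± 5.02; SD, n = 2 for each). Of neighbours in this order, Dusp2 and Btg2, Btg2 and Junb, and Dusp5 and Ier2 did not differ beyond their spread. The same 7 genes were the highest in KO cells, from 284 ± 91.3 RPKM for Jund to 104 ± 1.37 RPKM for Ier5 (SD, n = 2). At the low end, Fosb stood at 1.23 ± 0.597 RPKM in WT and 0.797 ± 0.348 RPKM in KO, Atf3 at 0.826 ± 0.0891 and 0.751 ± 0.306 RPKM, and Ier3 at 0.429 ± 0.112 and 0.366 ± 0.0135 RPKM (SD, n = 2 each). Sorted spleen NK cells thus held abundant JunD, JunB, BTG2 and DUSP2 transcripts and few Fosb, Atf3 and Ier3 transcripts in both genotypes.

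AP-1 is a dimer of Fos-family and Jun-family proteins, and its members here spanned a wide range of levels with no call between the genotypes. Jund, whose product restrains growth in several cell types, was at 757 and 1015 CPM for WT, with 633 and 1004 CPM for KO. Junb, another Jun-family subunit, was at 300.0 and 318 CPM (WT) against 312 and 321 CPM (KO). Those 2 genes had log2 fold changes of -0.11 (SE 0.32) and 0.036 (SE 0.19), and their groups overlapped. Jun, which encodes c-Jun, was counted at 31.1 and 48.2 CPM for WT, with 23.3 and 41.0 CPM for KO, lower in KO at both numbers with log2 ratios of -0.42 and -0.23. Its fitted log2 fold change of -0.30 (SE 0.40) was within the spread of the libraries.

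The Fos-family subunits, which bind DNA only with a Jun partner, showed the lowest values in KO library 1. Fos stood at 20.2 and 18.0 CPM (WT) against 11.6 and 21.1 CPM (KO). Fosb was at 6.25 and 3.06 CPM for WT, with 2.08 and 3.94 CPM for KO, and Fosl2, which encodes Fra-2, at 56.1 and 80.8 against 44.0 and 109 CPM. For all 3 the KO library was below the WT library at number 1 and above it at number 2. The log2 ratios were -0.79 and 0.23 for Fos, -1.54 and 0.36 for Fosb, and -0.35 and 0.43 for Fosl2. Atf3, a stress-induced factor that pairs with Jun proteins, was counted 49 and 69 times in WT and 31 and 69 times in KO. Fosb rested on 61 to 203 counts per library. The fitted log2 fold changes of these 4 genes were -0.22, -0.62, 0.16 and -0.13, none past the test.

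The 3 Egr genes encode zinc finger factors induced by antigen receptor and mitogen signals, and Egr2 and Egr3 are known for restraining lymphocyte activation. Egr1 was at 12.0 and 39.8 CPM (WT) against 8.12 and 50.7 CPM (KO). Egr2 was at 7.94 and 12.1 CPM for WT, with 5.52 and 20.0 CPM for KO, and Egr3 at 6.86 and 15.1 against 5.08 and 18.4 CPM. In each of the 3 genes the lowest library was KO library 1 and the highest was KO library 2, with both WT libraries between them. Library 2 exceeded library 1 by 3.33-fold in WT and 6.24-fold in KO for Egr1, 1.52-fold and 3.63-fold for Egr2, and 2.20-fold and 3.62-fold for Egr3. The KO to WT log2 ratios were -0.55, -0.52 and -0.43 at number 1 and 0.35, 0.72 and 0.28 at number 2. The fitted log2 fold changes were 0.18 (SE 1.02), 0.35 (SE 0.67) and 0.10 (SE 0.74). With the trend on gene length subtracted, the log2 differences of library 2 from library 1 were 1.61 (WT) and 2.45 (KO) for Egr1, 0.50 and 1.69 for Egr2, and 1.31 and 2.10 for Egr3. Genes of 2000 to 3000 counted bases, a range that holds Egr2, had a median library difference of -0.012 in WT and 0.00081 in KO, and those of 3000 to 4000, with Egr1, 0.10 and 0.14.

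The Nr4a genes encode orphan nuclear receptors that report antigen receptor signals and are known in exhausted T cells, and they had the same order of libraries as the Egr genes. Nr4a1, which encodes Nur77, stood at 21.6 and 33.5 CPM (WT) against 13.7 and 47.1 CPM (KO). Nr4a2 was at 9.57 and 14.6 CPM for WT, with 5.76 and 16.7 CPM for KO, and Nr4a3 at 13.8 and 26.8 against 7.81 and 32.8 CPM. KO library 1 was the lowest and KO library 2 the highest in all 3. Between the libraries of a genotype the differences were 1.55-fold (WT) and 3.43-fold (KO) for Nr4a1, 1.53-fold and 2.90-fold for Nr4a2, and 1.95-fold and 4.20-fold for Nr4a3. With the length trend subtracted, the log2 differences were 0.60 and 1.72 for Nr4a1, 0.45 and 1.29 for Nr4a2, and 1.03 and 2.17 for Nr4a3. The fitted log2 fold changes of KO against WT were 0.14 (SE 0.65), -0.11 (SE 0.58) and 0.0029 (SE 0.76).

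**Figure D2:**
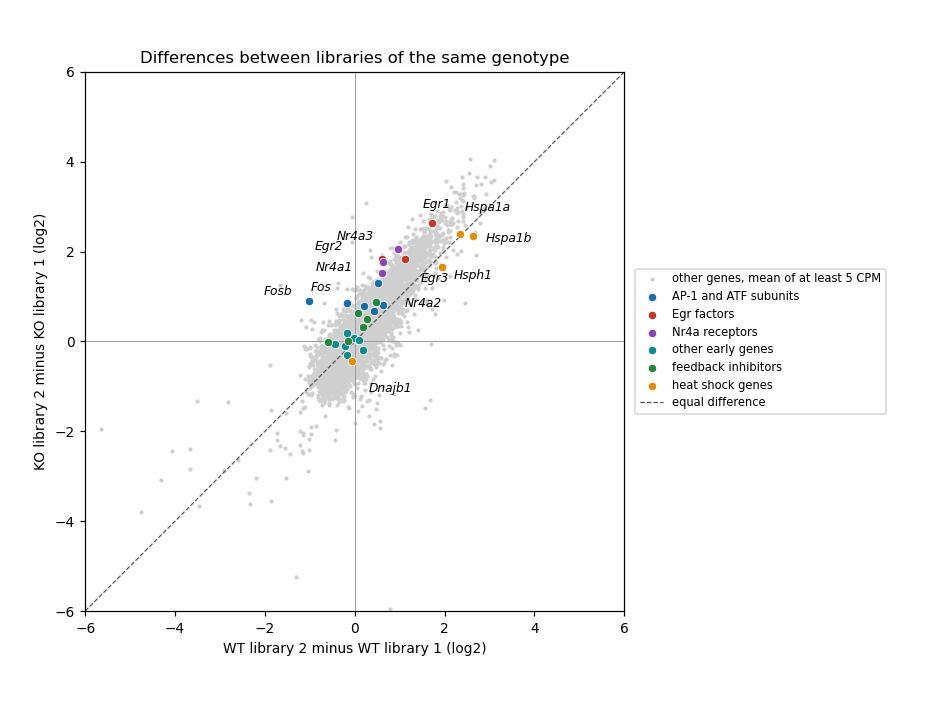
Log2 difference of library 2 from library 1 in WT (horizontal) and in KO (vertical) for the 30 genes, coloured by role, and for other genes with a mean of at least 5 CPM (grey); the dashed line marks equal differences. The Egr and Nr4a genes lie above the line, with larger differences in KO than in WT, and Hspa1b and Hsph1 lie below it.

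A KO to WT ratio that differed between the library numbers was not limited to the Egr and Nr4a genes. The KO to WT ratio was below 1 at number 1 for 21 of 30 members, beside 54.1% of all genes, and above 1 at number 2 for 23, beside 49.4%. Both held for 14 members, beside 23.2% of genes, among them all 3 Egr and all 3 Nr4a genes, and the opposite pattern held for 0 of 30, beside 19.7% of genes. Among the 14, Fosb, Dusp1 and Ier3 did not have KO library 1 as the lowest and KO library 2 as the highest. The ratio was higher at number 2 than at number 1 for 23 members, beside 52.3% of genes. Each library is 1 mouse, so a difference between genotypes in this range has no replicate and was not tested.

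**Figure D3:**
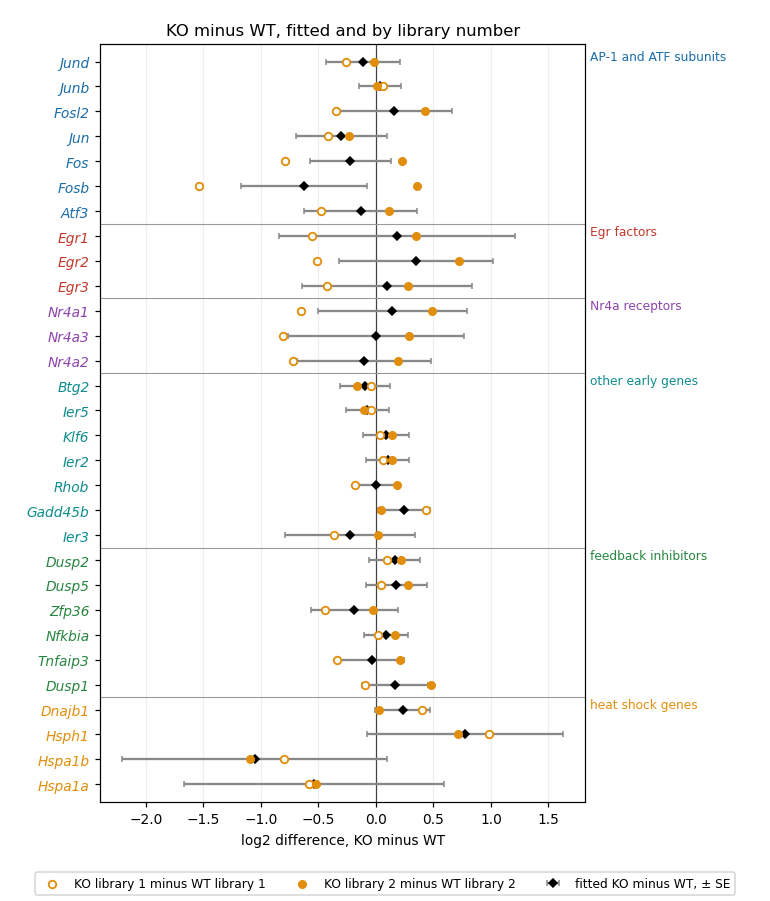
Log2 difference of KO from WT for each of the 30 genes: black diamonds with bars are the fitted value ± SE from edgeR, and circles are the differences within library number 1 (open) and number 2 (filled). Open and filled circles lie on opposite sides of 0 for the Egr and Nr4a genes, and on the same side for Hsph1 (0.99 and 0.71) and Hspa1b (-0.80 and -1.09).

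The feedback inhibitors, which end the early response, included some of the most highly expressed members. Dusp2, a nuclear phosphatase of ERK and p38 kinases, was at 293 and 335 CPM (WT) against 314 and 391 CPM (KO). Dusp5, a nuclear phosphatase of ERK, was at 133 and 161 CPM for WT, with 137 and 195 CPM for KO. Both were higher in KO at each number, with log2 ratios of 0.10 and 0.22 for Dusp2 and 0.046 and 0.28 for Dusp5, but their groups overlapped (log2 fold changes 0.16, SE 0.22, and 0.18, SE 0.26). Dusp1, a phosphatase of p38 and JNK, was at 19.0 and 12.5 CPM (WT) against 17.8 and 17.5 CPM (KO).

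Zfp36, which encodes the RNA-destabilising protein tristetraprolin, stood at 109.6 and 151 CPM for WT, with 80.8 and 148 CPM for KO (log2 fold change -0.19, SE 0.38). Of the inhibitors of NF-kB signalling, Nfkbia was steady and Tnfaip3 was lowest in KO library 1. Nfkbia, which encodes IkBalpha, was at 122 and 110.4 CPM (WT) against 123 and 124 CPM (KO), and Tnfaip3, which encodes the ubiquitin-editing protein A20, at 102 and 107 against 80.5 and 124 CPM. Their log2 fold changes were 0.090 (SE 0.19) and -0.033 (SE 0.28).

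The other early genes varied little between libraries, with log2 differences within a genotype from -0.44 (Ier3 in WT) to 0.19 (Gadd45b in WT), and for 0 of the 7 were both libraries numbered 2 above both numbered 1. With the length trend subtracted, the differences ran from -0.53 (Klf6 in KO) to 0.41 (Gadd45b in WT). Klf6 (-0.49 in WT) and Btg2 (-0.28 in WT and -0.47 in KO) were then lower in library 2 of both genotypes. Btg2, an antiproliferative factor that recruits the deadenylation machinery, was at 558 and 497 CPM for WT, with 543 and 443 CPM for KO. Ier5, whose product acts with heat shock factor 1, was at 346 and 369 CPM (WT) against 336 and 343 CPM (KO), below WT in both libraries by a log2 fold change of -0.074 (SE 0.19). Klf6, a zinc finger factor, was at 329.8 and 285 CPM for WT, with 338 and 314 CPM for KO. For Btg2 and Klf6 the genotypes overlapped, while Ier5 lay below WT in both KO libraries, and none of the 3 passed the test.

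Ier2 was at 182 and 181 CPM (WT) against 190.1 and 199.9 CPM (KO), above WT in both KO libraries (log2 fold change 0.10, SE 0.18). Gadd45b, a stress sensor that binds kinases, stood at 11.5 and 13.2 CPM for WT, with 15.7 and 13.6 CPM for KO (0.24, SE 0.23). Rhob, which encodes an endosomal small GTPase, was at 120.0 and 106 CPM (WT) against 106 and 120.4 CPM (KO). Ier2 and Gadd45b did not pass the test although their groups did not overlap, and Rhob had a log2 fold change of 0.0011 (SE 0.20). Ier3, an early gene linked to survival, was counted 12 to 18 times per library, at 0.382 to 0.554 CPM, which is too shallow to show a modest difference.

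Within each library number, the KO library was above WT for Hsph1 and below WT for Hspa1a and Hspa1b, but the genotypes overlapped for all 3. Hsph1 (Entrez gene 15505; mm10, chromosome 5, 149616843 to 149636498), which encodes the HSP110 nucleotide exchange factor of HSP70, was at 26.2 and 101 CPM for WT, with 52.1 and 165 CPM for KO. It was higher in KO at both numbers, by log2 ratios of 0.99 and 0.71, but library 2 exceeded library 1 by 3.84-fold in WT and 3.17-fold in KO. In the fit with genotype alone, which counts the difference between numbers as spread, the fitted log2 fold change was 0.77 (SE 0.85; edgeR unadjusted p = 0.411, adjusted p = 1.00) and the groups overlapped.

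Hspa1b (Entrez gene 15511; mm10, chromosome 17, 34956429 to 34959238) and Hspa1a (Entrez gene 193740; chromosome 17, 34969359 to 34972156) encode the stress-inducible HSP70. Hspa1b was at 4.71 and 29.7 CPM (WT) against 2.66 and 13.9 CPM (KO), and Hspa1a at 1.48 and 7.87 against 0.955 and 5.46 CPM. Both were lower in KO at each number, with log2 ratios of -0.80 and -1.09 for Hspa1b and -0.58 and -0.52 for Hspa1a. Library 2 exceeded library 1 by 6.31-fold in WT and 5.21-fold in KO for Hspa1b and by 5.33-fold and 5.72-fold for Hspa1a. With the length trend subtracted, the log2 differences between libraries remained above 1 in both genotypes for Hspa1b (2.55 and 2.22), Hspa1a (2.26 and 2.28) and Hsph1 (1.76 and 1.40). The fitted log2 fold changes were -1.05 (SE 1.15; edgeR unadjusted p = 0.407, adjusted p = 1.00) and -0.54 (SE 1.13). Without WT library 2 the fitted value of Hspa1b was 0.82, and without KO library 2 that of Hsph1 was -0.25, fits in which the numbers are unbalanced.

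The transcripts of the 2 HSP70 genes are alike enough for reads to be shared or lost. Of the 75-base stretches in the longest annotated transcript, 52.7% of those of Hspa1a also occur in Hspa1b, and 55.8% of those of Hspa1b in Hspa1a. Summed over both genes, the level was 6.18 and 37.6 CPM for WT, with 3.61 and 19.3 CPM for KO, with log2 ratios of -0.77 and -0.96. Dnajb1, the HSP40 co-chaperone that feeds substrates to HSP70, did not follow its partners, at 136 and 130.0 CPM (WT) against 179.9 and 133 CPM (KO) (log2 fold change 0.23, SE 0.24), with both libraries numbered 2 below both numbered 1.

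Promoters of the HSP70 pair are shown because the genes kept the same order of libraries. The windows are the 160 bases before the annotated start (GRCm38.p6, minus strand, RefSeq), chr17:34972157-34972316 for Hspa1a and chr17:34959239-34959398 for Hspa1b, and capitals mark the heat shock element core GAANNTTC, 104 to 97 bases upstream.
Hspa1a: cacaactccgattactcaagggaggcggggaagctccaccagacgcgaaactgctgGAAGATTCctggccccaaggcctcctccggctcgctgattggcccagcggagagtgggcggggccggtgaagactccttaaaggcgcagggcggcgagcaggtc
Hspa1b: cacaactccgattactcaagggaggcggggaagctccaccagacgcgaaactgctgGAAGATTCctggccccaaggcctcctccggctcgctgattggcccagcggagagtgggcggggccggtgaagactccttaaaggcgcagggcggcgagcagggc
Over 250 upstream bases the 2 promoters were identical at 247 positions.

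Early genes are shown with windows around 2 elements that early-response factors are known to bind. The Fos (chr12:85473799-85473854, plus strand) and Nr4a3 (chr4:48045055-48045104, plus strand) windows hold the cyclic AMP response element core TGACGT. That of Nr4a3 lies before a downstream annotated start, and it spans the first base of the gene at 48045078. The Btg2 (chr1:134079289-134079346, minus strand) and Dusp1 (chr17:26508583-26508640, minus strand) windows hold the full palindrome TGACGTCA. Windows of Egr2 (chr10:67537469-67537528, plus strand, one of its annotated starts) and Zfp36 (chr7:28379252-28379311, minus strand) hold a CArG box, the binding element of serum response factor. Capitals mark the element in each.
Fos: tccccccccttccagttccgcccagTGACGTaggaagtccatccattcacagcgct
Nr4a3: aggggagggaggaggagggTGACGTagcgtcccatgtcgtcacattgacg
Btg2: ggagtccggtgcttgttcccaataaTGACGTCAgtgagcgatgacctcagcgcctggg
Dusp1: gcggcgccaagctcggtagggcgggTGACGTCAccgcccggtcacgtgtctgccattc
Egr2: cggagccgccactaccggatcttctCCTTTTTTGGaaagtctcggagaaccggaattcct
Zfp36: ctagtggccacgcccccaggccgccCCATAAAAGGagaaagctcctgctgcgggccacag
Of these 6 genes, Nr4a3, Egr2 and Zfp36 were higher in both libraries numbered 2, Btg2 and Dusp1 were lower in both, and Fos was lower in WT library 2 and higher in KO library 2 than in library 1.

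Of the members, 27 had a promoter in the RefSeq table (none for Egr1, Egr3 and Ier2), and letters were searched on both strands of the 250 bases before each annotated start. The core TGACGT, which every full palindrome also holds, was present for 8 of 27 members, beside 6.47% of 32851 windows of all genes, and the palindrome TGACGTCA for 2, beside 1.55%. The Egr site GCGNGGGCG was present for 8 of 27 (Fosb, Fosl2, Nr4a1, Nr4a2, Btg2, Gadd45b, Dusp2 and Zfp36), beside 4.70% of windows. The CArG box was present for 3 (Egr2, Dusp5 and Zfp36), beside 1.47%. The heat shock element core was present for 4 (Fosl2, Jun, Hspa1a and Hspa1b), beside 6.69%, and the AP-1 site TGANTCA for 1, Tnfaip3, beside 6.75%. The Tcf/Lef site CTTTGAT was found for 0 of 27 members, beside 3.21% of windows, and the Nr4a site AAAGGTCA for 0, beside 1.34%. Members with several annotated starts had more than 1 window, and a member was counted if any of its windows matched. The shares beside them are of single windows, so the 2 measures are unlike and members match more easily. A match of letters does not show binding.

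Other genes of the pathways were taken from lists set by name. None of the 19 upstream kinases and factors passed edgeR's test, with log2 fold changes above 0 for 4 and below 0 for 15. For 11 of the 19, both libraries numbered 2 were above both numbered 1, beside 34.6% of all genes. For 4 they were below, beside 33.2%. The KO to WT ratio was higher at number 2 than at number 1 for 18, beside 52.3% of genes. These counts include the trend on gene length. With that trend subtracted, 9 of the 19 were higher in library 2 than in library 1 in both genotypes, beside 33.5% of genes. The ratio was then below 1 at number 1 for 12 of the 19, beside 6332 of 12723 genes. It was above 1 at number 2 for 11, beside 6213 of 12723. Among the calcium-responsive factors, Nfatc1 was at 243 and 503 CPM for WT, with 162 and 482 CPM for KO, higher in both libraries numbered 2 and lower in KO at each number. Nfatc1 was named after its values were seen. The genes of this list with the smallest unadjusted p by edgeR were Crem, Nfkb1 and Mapk9. Crem was at 29.1 and 18.0 CPM (WT) against 31.6 and 24.3 CPM (KO). It was lower in both libraries numbered 2 and higher in KO at each number. Nfkb1 was at 201 and 290 CPM for WT, with 212 and 382 CPM for KO, and Mapk9 at 94.7 and 91.1 against 74.7 and 93.3 CPM. Of 34 further early genes tested, 0 passed, with 12 above 0 and 22 below. In this list the KO libraries lay above both WT libraries for 4 genes, beside 9.64% of all genes. They lay below both for 7, beside 11.6%. Cd69, an early activation antigen that retains lymphocytes in tissue, had the smallest unadjusted p (0.0292). Cd69 stood at 25.3 and 16.1 CPM (WT) against 42.1 and 38.4 CPM (KO) and was higher in both KO libraries. Its log2 fold change of 0.96 (SE 0.30) had an adjusted p of 1.00 by edgeR's quasi-likelihood test, so it did not pass. Nfkbiz, a nuclear IkB protein, was at 10.6 and 14.9 CPM for WT, with 5.22 and 9.35 CPM for KO, lower in both KO libraries. Ifng, the main cytokine of NK cells, was at 60.9 and 44.5 against 66.5 and 63.1 CPM, higher in both KO libraries. Of 6 activated NK cell cytokines tested, 0 passed.

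Most other chaperones had a log2 fold change above 0. Of 17 further chaperones and co-chaperones tested, 13 had a log2 fold change above 0 and 4 below, with a median of 0.29 beside -0.0098 over all genes, and 0 passed edgeR's test over all genes. Hspa8, the constitutive HSP70, was at 279 and 376 CPM (WT) against 584 and 541 CPM (KO) with a log2 fold change of 0.78 (SE 0.24; unadjusted p = 0.0259 and adjusted p = 1.00 by edgeR). Hspe1, the mitochondrial HSP10, stood at 50.1 and 40.0 CPM for WT, with 68.4 and 78.3 CPM for KO (0.70, SE 0.23), and Dnaja1, an HSP40 co-chaperone, at 45.3 and 44.2 against 65.0 and 57.5 CPM (0.45, SE 0.20). The KO libraries lay above the WT libraries for these 3 and for Chordc1, which is 4 of 17 beside 9.64% of all genes. The same KO libraries held more erythroid marker transcripts (summed 39.1 and 28.8 CPM in WT against 211 and 127 CPM in KO, 8 of 9 markers matched) and neutrophil marker transcripts (37.2 and 1.86 CPM against 433 and 89.9 CPM, 12 of 12 matched, 4 at 0 in WT library 2). These transcripts were counted in cells sorted as TCRbeta- NK1.1+ NKp46+ CD11b+ KLRG1+, and their part in the chaperone values was not tested.

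**Figure D4:**
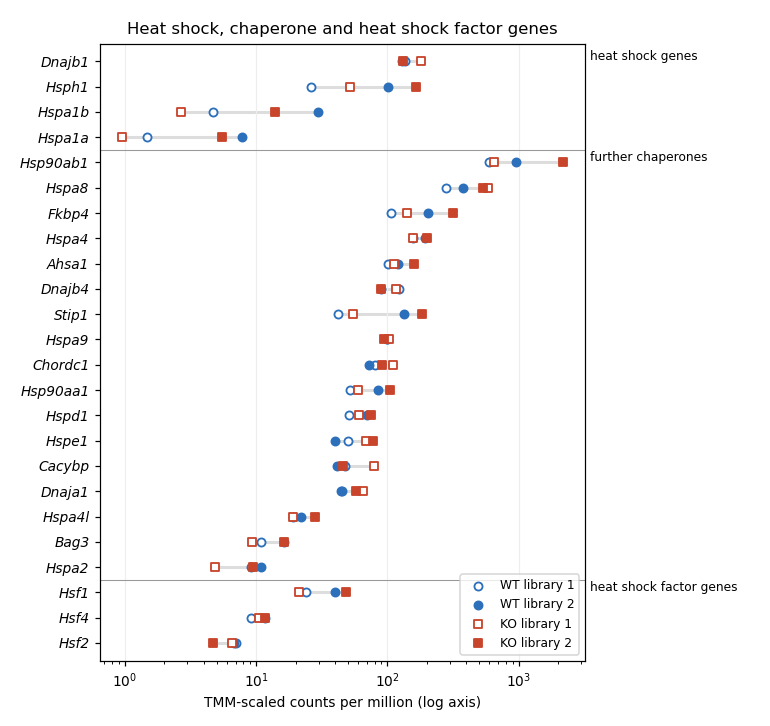
Level of the 4 heat shock genes, 17 further chaperone genes and 3 heat shock factor genes in each library, in TMM-scaled CPM on a log axis; symbols are as in the plot of all 30 genes. Red squares lie right of both blue circles for Hspa8, Hspe1, Dnaja1 and Chordc1. Filled symbols lie right of open ones for Hsph1, Hspa1a and Hspa1b, and also for Hsf1 and Hsf4. The same holds for 10 of the 17 further chaperones, among them Stip1 and Hsp90ab1, beside 34.6% of all genes.

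The genotype difference of Hsph1 was thus of the sign of most chaperones, and that of Hspa1a and Hspa1b was not. Hsf1, which encodes the main heat shock factor, was at 24.1 and 39.8 CPM (WT) against 21.1 and 48.7 CPM (KO), Hsf2 at 6.98 and 6.82 against 6.61 and 4.66 CPM, and Hsf4 at 9.17 and 11.8 against 10.5 and 11.8 CPM. None of the 3 passed the test. Of 14 genes of endoplasmic reticulum stress tested, 7 lay above 0 and 7 below, with a median of 0.014.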

How the data were processed

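Total RNA (200 ng per library, per the labels' protocols) was sequenced. The authors deposited raw counts of reads per Entrez gene beside a gene length, per the file headers. The submitters' processing notes name featureCounts and mm10. The aligner, versions and strand setting are not given in the sources used here, so overlapping genes may share reads. All 4 columns were assigned to a sample, and symbols came from RefSeq (GRCm38.p6) for 25275 gene numbers (95.0%).

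edgeR 4.0.16 (R 4.3.3) tested KO against WT by quasi-likelihood, with TMM scaling, a robust fit, filterByExpr at a minimum count of 10, genotype alone in the model, and Benjamini-Hochberg adjustment over 12723 genes at 0.05. CPM are TMM-scaled. The SE was derived from the fold change and F, and 0.1 CPM was added for ratios of single libraries. A count of 0 allows 0.0764 to 0.102 CPM (3 counts, counting error only). An exact permutation test of 2 against 2 cannot go below p = 0.333. DESeq2 1.42.0, limma 3.58.1 (voom), other scalings, filters and libraries left out were alternatives. The length offset (loess), alone and with the number as a block, and the summed HSP70 genes were added after seeing the data. Fits were first tested on simulated counts with genotype effects only. These had no difference between library numbers beyond depth and no trend on gene length, unlike the data.

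Members with a mean of at least 5 CPM were given per library, and so were Hspa1a, Fosb and, as counts, Atf3. Of 12 further lists (161 of 162 genes matched), the lists of pathway genes were to give up to 3 genes of smallest p. Members and lists were chosen with earlier results of these data known, and Nfatc1, Chordc1, Stip1 and Hsp90ab1 were named after their values were seen.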

Additional observations from a re-analysis of the deposited data

How the results depend on the processing

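Results here rest on 2 mice per genotype, whose libraries differ by number and with gene length, and members under 5 CPM (Hspa1a, Fosb, Atf3 and Ier3) rest on few counts. The number of members called was 0 in edgeR under both other scalings, both other filters, the length offset and each library left out, and 0 in voom and DESeq2. The number of genes called was 35 with no filter and 71 with DESeq2, and 0 to 53 with a library left out (33 without KO library 1, 53 without KO library 2). Members without overlap numbered 4, and 5 or 3 under the other scalings.

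The labels do not say that library numbers mark pairs. Deviations of same-numbered libraries from their group means correlated at 0.74 over 12723 genes. With the number as a block, edgeR called 221 genes (1.74%) and 2 members, Hsph1 (log2 fold change 0.85, adjusted p = 0.0106) and Hspa1b (-0.98, adjusted p = 0.0306); DESeq2 called 240 genes (1.89%) and the same 2 (0.87 and -0.96, adjusted p = 3.46e-04 and 0.0390). With length offsets and the block, 236 genes (1.85%) and 2 members were called, Hsph1 (0.89, edgeR adjusted p = 0.00608) and Hspa1b (-0.96, 0.0332). Of the pathway genes outside the members, the block called Cd69 (0.99, edgeR adjusted p = 0.0169; DESeq2 0.00101) and Hspa8 (0.79, edgeR adjusted p = 0.0413; DESeq2 0.00111), and Hspe1 in DESeq2 alone (0.73, adjusted p = 0.0248; edgeR 0.0580), all higher in KO.

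The median over members, 0.019, was -0.067 with voom, -0.060 and -0.049 with the block in edgeR and DESeq2, -0.028 with block and length offset, and -0.40 to 0.17 with a library left out. Members that turned sign were Nr4a3 (-0.017) and Rhob (-0.00071) by library size only. With voom they were Egr1 (-0.092), Egr3 (-0.054), Nr4a1 (-0.071), Nr4a3 (-0.24). The same 4 turned with the block in edgeR (-0.067, -0.046, -0.056, -0.23), in DESeq2 (-0.069, -0.040, -0.052, -0.23) and with block and length offset (-0.026, -0.086, -0.036, -0.23). Tnfaip3 turned with the length offset, without (0.014) and with (0.020) the block. The cause was not tested.

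With a library left out, 7 members kept their sign and 23 did not, in fits unbalanced for the number. Their log2 fold changes ran over these ranges: Atf3 -0.59 to 0.23, Btg2 -0.25 to 0.075, Dnajb1 -0.0047 to 0.47, Dusp1 -0.087 to 0.49, Dusp5 -0.062 to 0.41, Egr1 -1.64 to 1.30, Egr2 -0.82 to 1.00, Egr3 -1.08 to 0.79, Fos -0.68 to 0.14, Fosl2 -0.61 to 0.67, Hspa1a -2.25 to 1.13, Hspa1b -2.66 to 0.82. The others ran over these: Hsph1 -0.25 to 2.06, Ier3 -0.45 to 0.057, Jun -0.73 to 0.060, Junb -0.0093 to 0.094, Jund -0.45 to 0.18, Nr4a1 -0.97 to 0.77, Nr4a2 -1.04 to 0.47, Nr4a3 -1.34 to 0.69, Rhob -0.068 to 0.090, Tnfaip3 -0.35 to 0.25, Zfp36 -0.66 to 0.19.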

Other observations

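Hsp90ab1, the constitutive cytosolic HSP90, was at 594 and 957 CPM for WT, with 654 and 2188 CPM for KO. That makes KO library 2 the highest for this gene, with log2 ratios of KO to WT of 0.14 at number 1 and 1.19 at number 2 (log2 fold change 0.87, SE 0.64, not past edgeR's test). Stip1, a co-chaperone that joins HSP70 and HSP90, differed between libraries of the same genotype much as Hsph1 did, at 41.8 and 134 CPM (WT) against 55.2 and 183 CPM (KO). Both genes were named after their values were seen.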
